A study of Saposhnikovia divaricata with 9 samples.

Results

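The transcripts described here are the 77 abundant transcript clusters of Saposhnikovia divaricata leaves whose level was nearly the same in every library. They were taken from 63753 clusters by 3 conditions on the 9 deposited FPKM values of each cluster. FPKM is the number of sequenced fragments of a cluster relative to its length and to all mapped fragments of the library. A cluster had to reach 50 FPKM in all 9 libraries, its highest value could be at most 1.5 times its lowest, and its mean in group C had to lie below 1000 FPKM. Since these conditions used every value of every library, the levels of the 77 clusters are a description and carry no test.

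Saposhnikovia divaricata is a perennial herb of the carrot family, and its dried root is used in Chinese medicine. Poly(A) RNA of leaves was sequenced in 3 groups of 3 libraries, coded L, M and C with replicate numbers 1 to 3. The series' design text speaks of plants aged 48 days, of a control and of cold treatment at 4 °C lasting 6 h or 48 h, but no label says which code is which of these, so the codes are used as they stand. Whether the replicates are separate plants is not stated, and p-values therefore cover the spread between these libraries only. The labels' text on RNA extraction speaks of retinas and the genome field of a mouse build, and neither was used.

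Every cell needs a core of transcripts for protein synthesis and turnover, the cytoskeleton, energy supply and membrane traffic. Many of these vary little between conditions, and in plants, genes for actin, tubulin, elongation factor 1-alpha, ubiquitin and protein phosphatase 2A subunits are commonly used as internal standards of expression. Cold reshapes leaf transcription through regulators such as the CBF factors and the COR genes they switch on, and internal standards are therefore checked for each treatment before use. The table used here gives only cluster identifiers, without gene names or sequences. Which of the 77 clusters encode such genes was therefore not analysed, and no function is given for any of them. Levels are per length and relative to the library, so a cluster that is steady in FPKM kept its proportion of the sequenced RNA, which is not a measure of molecules per cell. In whole leaves, a different number of cells of a type and a different level per cell cannot be told apart.

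Steadiness was uncommon among abundant clusters. In all, 1062 clusters reached 50 FPKM in every library, and the 77 steady ones were 7.25% of them. The ratio of the highest to the lowest of the 9 values ran from 1.197 to 1.495 in the 77, with a median of 1.38, and it had a median of 2.44 and a maximum of 142.5 in the other 985. Of all 1062 clusters, 703 had a ratio above 2, 220 a ratio above 4 and 51 a ratio above 10. Within the 77, 3 clusters stayed at or below a ratio of 1.2, 19 at or below 1.3 and 44 at or below 1.4. Their coefficient of variation over the 9 libraries lay between 5.11% and 15.99%, with a median of 10.9%.

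The steady clusters sat at the lower end of the abundant range. Their mean over the 9 libraries ran from 56.2 to 529.7 FPKM with a median of 94.6, and 44 of the 77 averaged below 100 FPKM, 21 between 100 and 200, and 12 above 200. Among abundant clusters with a mean below 100 FPKM, 19.8% of 222 were steady. The proportion was 5.08% of 413 between 100 and 200 FPKM, 3.90% of 282 between 200 and 500 FPKM, and 0.690% of 145 above 500 FPKM. Only 993 of the 1062 clusters lay below the limit on the C mean, which lowers the proportion at high means. Of those above that limit, 2 met the ratio. A cluster with a mean below 100 FPKM and no value below 50 FPKM has less room to vary, so the lowest class is favoured by the floor itself. The median ratio was 2.32, 2.85 and 3.90 in the upper 3 classes. The floor also bounds the ratio there, less tightly at a higher mean, and its part in these values was not tested. Across the 1062 clusters the Spearman correlation of ratio and mean was 0.482, and across the 77 it was -0.112. The clusters of each correlation share the same 9 libraries and both quantities come from the same values.

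**Figure D1:**
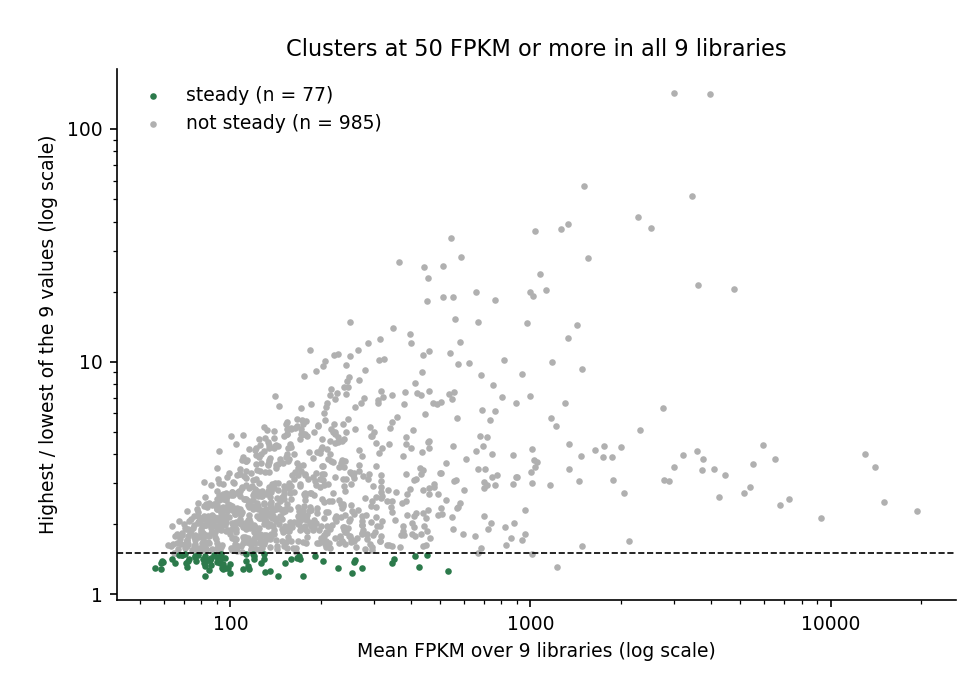
Highest divided by lowest FPKM of the 9 libraries against the mean FPKM, for the 1062 clusters at 50 FPKM or more in all libraries (both axes logarithmic). The 77 steady clusters, in green, lie under the dashed limit of 1.5, and those with a mean above 500 FPKM lie above it with 3 exceptions, of which 1 is counted as steady and 2 exceed the limit on the C mean.

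Cluster-17261.22304 had the smallest ratio, 1.197. It stood at 169.4, 187.3 and 157.6 FPKM in L, at 188.6, 170.7 and 170.4 FPKM in M, and at 162.3, 183.3 and 180.9 FPKM in C. The 3 groups overlapped throughout, and the lowest value was in L and the highest in M. The group means were 171.4 ± 14.9 FPKM in L, 176.6 ± 10.4 in M and 175.5 ± 11.5 in C (mean ± SD, n = 3), so they lay closer together than the replicates of any group.

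Cluster-17261.24543 was nearly as steady, at 131.3, 145.5 and 147.1 FPKM in L, 135.5, 144.0 and 143.5 FPKM in M, and 142.8, 147.1 and 157.3 FPKM in C. All groups overlapped, with C replicate 3 the highest library and L replicate 1 the lowest. Cluster-17261.25375, at a lower level, had 80.7, 74.2 and 84.0 FPKM in L, 76.9, 82.3 and 87.3 FPKM in M, and 79.8, 85.7 and 89.0 FPKM in C. Its groups overlapped as well, and C replicate 3 was again the highest library.

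Cluster-17261.23723 was the most abundant steady cluster. Its values were 494.1, 586.1 and 483.1 FPKM in L, 500.2, 480.7 and 483.8 FPKM in M, and 603.7, 560.0 and 575.8 FPKM in C. Here M lay entirely below C, with L replicates 1 and 3 near the M values and L replicate 2 among the C values. Cluster-17261.21009, the second most abundant, had a wider ratio of 1.48, with 374.3, 503.0 and 408.9 FPKM in L, 433.0, 399.2 and 401.0 FPKM in M, and 554.0, 492.0 and 490.3 FPKM in C. It showed the same arrangement, with M below C and L replicate 2 among the C values.

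The least abundant steady cluster, Cluster-17261.21913, averaged 61.5 ± 3.35 FPKM in L, 52.7 ± 1.23 in M and 54.3 ± 3.41 in C (mean ± SD, n = 3). Its 3 L values, 65.3, 59.0 and 60.1 FPKM, lay above all values of M (52.3, 51.8 and 54.1 FPKM) and of C (50.4, 56.8 and 55.6 FPKM). A cluster inside the limits can thus still have groups that do not overlap.

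**Figure D2:**
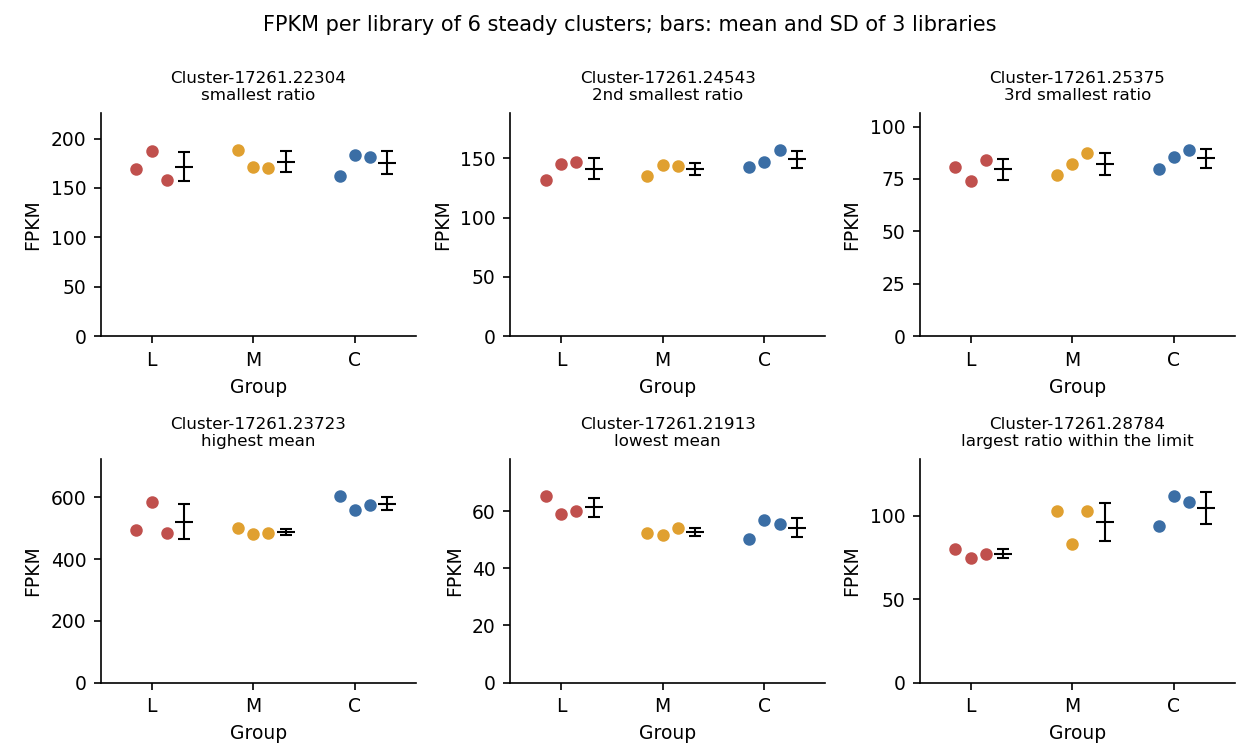
FPKM of 6 steady clusters in each of the 3 libraries of groups L, M and C (linear axes from 0), with the mean and SD of each group. The upper panels show the 3 smallest ratios, where all groups overlap, and the lower panels show the highest mean, the lowest mean and the largest ratio within the limit.

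At the edge of the definition, Cluster-17261.28784 had the largest ratio still within it, 1.495. It was at 80.1, 74.8 and 77.2 FPKM in L, 102.8, 83.2 and 103.2 FPKM in M, and 94.1, 111.9 and 108.3 FPKM in C, with all L values below all others. Cluster-17261.7019, with a ratio of 1.5004, fell just outside. Its values of 53.3, 76.1 and 56.3 FPKM in L, 50.7, 65.2 and 74.5 FPKM in M, and 68.7, 65.6 and 73.6 FPKM in C overlapped between all groups, so the wider spread was between replicates. The number of clusters grew quickly past the limit, to 121 at a ratio of 1.6 and 353 at 2. Just inside the floor the lowest value was 50.4 FPKM and just outside it 47.9 FPKM, and 406 clusters met the ratio with a lowest value under 50 FPKM. A further 2 clusters met both other conditions but averaged more than 1000 FPKM in C: Cluster-17261.24297 at 954.8 ± 140.2 FPKM in L, 867.6 ± 31.3 in M and 1204.8 ± 53.7 in C, and Cluster-17261.23516 at 1328.2 ± 88.5 FPKM in L, 1240.0 ± 151.9 in M and 1114.4 ± 14.3 in C (mean ± SD, n = 3).

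As a whole the 77 clusters took a nearly constant part of each library, between 1.13% and 1.24% of all FPKM. The limit on the ratio used these same values, so this follows in large part from the choice. The part was 1.17% ± 0.0291 in L, 1.16% ± 0.0254 in M and 1.196% ± 0.0411 in C (mean ± SD, n = 3). Their median level ranged from 91.7 to 97.5 FPKM in L, from 94.2 to 101.1 FPKM in M and from 94.2 to 106.2 FPKM in C. The group means came in every order. L had the highest mean in 25 clusters, M in 20 and C in 32. The most frequent order, C above M above L, held in 18 clusters, and the least frequent, M above L above C, in 7.

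Between groups, 8 of the 77 clusters had all 3 L values above all 3 C values and 16 had them all below, and in 53 the values overlapped. Over the 35314 clusters tested in the series, those with at least 1 FPKM in at least 3 libraries, 14.3% lay higher and 43.8% lower in L than in C without overlap. In M against C, 2 steady clusters lay higher and 12 lower, against 18% and 21.3% of tested clusters. In L against M, 12 lay higher and 10 lower, against 11% and 45.3%. The limit on the ratio used these same values, and nothing is read from the counts beside these proportions. In 38 of the 77 clusters the values overlapped in all 3 comparisons.

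A limma fit of log2(FPKM + 1) over all tested clusters called none of the 77 changed at an adjusted p below 0.05 and at least 2-fold, which a ratio of 1.5 does not permit. Over all tested clusters 40.7% were called for L against C, 12.9% for M against C and 31.7% comparing L with M. The median difference of the 77 clusters on this log2 scale was -0.06 in L against C, -0.03 in M against C and 0.0016 in L relative to M, beside medians of -0.56, -0.03 and -0.55 over all tested clusters. Without the requirement of a 2-fold change, 4 of the 77 passed the adjusted p in L against C, 0 in M against C and 1 in L against M (8, 3 and 5 at an unadjusted p below 0.05), beside 53.1%, 17.8% and 44.6% of all tested clusters at that adjusted p. The choice of the 77 used these contrasts, and nothing is read from this. Cluster-17261.23818 was the 1 higher in L than in C, with 140.3 ± 13.1 FPKM in L, 112.9 ± 4.44 in M and 107.6 ± 5.81 in C (mean ± SD, n = 3). Cluster-17261.24867 was the 1 higher in L than in M, with 199.7 ± 10.8 FPKM in L, 147.4 ± 7.95 in M and 162.5 ± 7.38 in C. The other 3, among them Cluster-17261.28784, were lower in L than in C, with log2 differences from -0.44 to -0.39. Cluster-17261.23818, Cluster-17261.24867 and the 2 clusters above the limit on the C mean were named after their values were seen. The passes at the adjusted p alone depended on single libraries and settings. In L against C they numbered 1 without L replicate 1, without C replicate 3, with the replicate number as a block or with no filter on low values, in each case a cluster lower in L. Quantile normalization gave 1 higher and 7 lower. The direction also changed with the setting. Scaling to the median of the 77 clusters gave 4 higher and 1 lower, and leaving out C replicate 2 gave 2 higher and 1 lower. Median scaling gave 77 higher and 0 lower. The pass of Cluster-17261.24867 in L against M was the only one there, and no cluster passed without L replicate 1, M replicate 2 or M replicate 3.

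Within a group the ratio of highest to lowest had a median of 1.18 in L, 1.13 in M and 1.17 in C over the 77 clusters. The ratio between the highest and lowest group mean ran from 1.03 to 1.36, with a median of 1.15. Means of 3 libraries vary less than single libraries, so these ratios are not compared. Among all 1062 abundant clusters, 731 kept within a ratio of 1.5 inside L, 888 inside M and 676 inside C, and 473 did so inside each of the 3 groups. Of these 473, the 77 were 16.3%. In the 473 the median ratio between the highest and lowest group mean was 1.55, so close replicates alone did not place a cluster in the steady set.

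The libraries contributed unequally to the extremes. L replicate 2 held the highest of the 9 values in 20 of the 77 clusters and C replicate 3 in 13, while L replicate 3 held the lowest in 18 and C replicate 3 in only 1. The sum of FPKM was highest in L replicate 2, at 932785, against 863749 to 898539 in the other 8 libraries. Its part in the extremes was not tested. Low FPKM values move in steps of 1 fragment, and these steps put the depth at 0.974 to 1.15 in L, 0.951 to 1.08 in M and 1 to 1.05 in C, with C replicate 1 set to 1. The absolute depth is unknown, and the values therefore carry no counting interval.

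Leaving out libraries gave values that the conditions had not used. Clusters were chosen on 8 libraries, and the ninth was then read. With M replicate 1 left out, 80 clusters were chosen and 77 of them, 96.3%, also held in that library. With L replicate 2 left out, 119 were chosen and 64.7% held, and with C replicate 1 left out, 107 were chosen and 72.0% held. The other 6 libraries gave 82 to 98 clusters and 78.6% to 93.9%. Of the 42 clusters lost to L replicate 2, 24 lay above all 8 other values and 18 below, while C replicate 1 lay above in 26 of its 30 and C replicate 3 above in 17 of its 18. L replicate 1 lay below in 9 of its 10, L replicate 3 below in 12 of its 16 and M replicate 3 below in 13 of its 15. A cluster could also be lost by a value under the floor of 50 FPKM, which always lies below the others. Losses by the floor and by the ratio were not separated.

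Whole groups were then left out in the same way. Choosing on the 6 libraries of M and C, with the mean of these libraries below 1000 FPKM, gave 445 clusters, of which 77, or 17.3%, were still steady once L was added (Wilson 95% interval 14.1% to 21.1%, for counting error only). Choosing on L and C gave 137 clusters, and 56.2% were still steady with M (47.8% to 64.2%). Choosing on L and M gave 271 clusters, and 28.4% were still steady with C (23.4% to 34.1%). Clusters are not independent replicates, and the differences between these proportions were not tested.

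In the 445 clusters that were steady over M and C, the 3 L values lay below all 6 others in 225 clusters, or 50.6%, and above them in 54, or 12.1%. The same arrangement occurred in 34.2% and 8.31% of all tested clusters. Of 1068 clusters with the same floor and upper limit that were not steady over M and C, L lay below in 42.5% and above in 8.15%. A narrow range of the 6 values makes such a separation easier, and this was not tested apart. In the limma fit 20 of the 445 rose and 100 fell in L against C, or 4.49% and 22.5%, where 10.2% and 30.5% of all tested clusters did so. After quantile normalization 18 of the same clusters rose and 90 fell, beside 15.1% and 16.7% of all tested clusters, and after median scaling 91 rose and 24 fell, beside 18.7% and 14.5%. The median of L to the mean of the other 6 libraries was -0.41 (log2), with quartiles of -0.84 and 0.02. For the same 445 clusters this median was -0.41 after quantile normalization, with L below in 222 and above in 47, -0.34 after scaling to the median of the 77 clusters, with 210 and 63, and -0.42 after scaling to the same sum of FPKM, with 226 and 50. The scale set by the 77 clusters used their L values, and the 77 are among the 445. Its values are therefore no separate test. The direction turned under median scaling, where each library was scaled to the same median over tested clusters: the median was then 0.51, with L below in 50 clusters and above in 213. Of the 137 clusters chosen on L and C, none passed both limma thresholds in L against M or in M against C. Of all tested clusters, 31.7% and 12.9% did so. In the 137, 27 and 11 passed the adjusted p alone, beside 44.6% and 17.8% of all tested clusters. At an unadjusted p below 0.05 there were 38 and 29, beside 52.1% and 33.0% of all tested clusters. M lay below the other 6 values in 23 of these clusters and above in 9, or 16.8% and 6.57%, beside 1.74% and 7.44% of all tested clusters. Of 894 clusters with the same floor and upper limit that were not steady over L and C, M lay below in 4.70% and above in 4.70%. After median scaling M lay below in 35 and above in 0 of the same 137. In the 271 clusters chosen on L and M, the 3 C values lay below the other 6 in 34 and above them in 76, or 12.5% and 28.0%, beside 7.99% and 18% of tested clusters. Of 990 clusters with the same floor and upper limit that were not steady over L and M, C lay below in 26.6% and above in 13.2%. The C mean was at least 2-fold below the mean of the other 6 libraries in 24 of the 271 and above it in 2. This was not counted over all tested clusters. By both limma thresholds C was the lower group beside L in 24 clusters (8.86%) and the higher group in 4 (1.48%). Of all tested clusters, C was lower beside L in 10.2% and higher in 30.5%. Beside M, the fit called C lower in 24 clusters (8.86%) and higher in 2 (0.738%). Among the 35314 tested clusters it called C lower beside M in 2883 and higher in 1662. Nothing is read from the direction of these calls. After median scaling C lay below in 40 and above in 0 of the same 271. This scaling raises L, and both the 137 and the 271 were chosen level with L on the deposited values. M or C could thus hardly lie above L afterwards, and these counts are no test. With the lists chosen anew after median scaling, M lay below in 33 and above in 2 of 76 clusters. C lay below in 13 and above in 11 of 74.

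**Figure D3:**
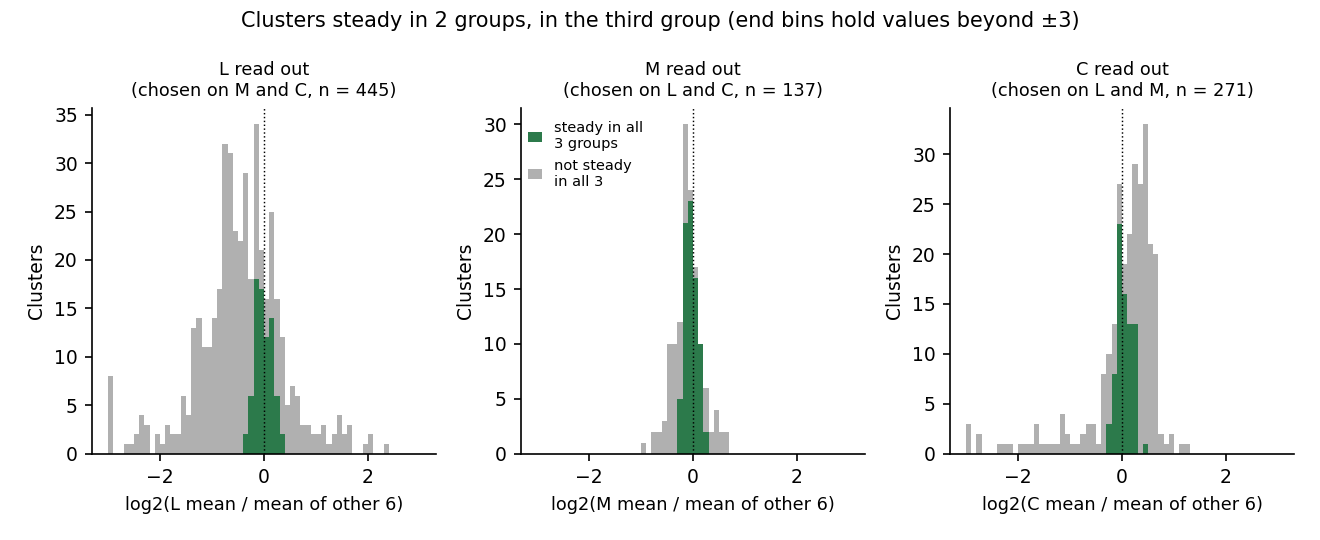
Mean of the group read out divided by the mean of the other 6 libraries (log2), for clusters steady over those 6 libraries, as numbers of clusters. Clusters steady in all 3 groups, in green, lie around 0 in each panel, while the remaining clusters reach beyond -2 where L or C was read out, beyond 2 as well where L was, and stay between -1 and 1 where M was.

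The steady set depended on how libraries were put on a common scale. The median FPKM of tested clusters was 2.22 to 2.81 in L, 4.75 to 4.81 in M and 4.33 to 4.98 in C, so scaling every library to the same median raises L relative to both other groups. After this scaling none of the 77 clusters met the ratio of 1.5, and their ratios ran from 1.94 to 3.33. All 77 then had their 3 L values above all 3 C values and above all 3 M values, arrangements found in 27.3% and 27.5% of tested clusters. Their median log2 difference was 0.84 for L against C and 0.92 for L set against M. On that scale 23 rose in L against C and 29 in L against M by the same limma thresholds, where 18.7% and 15.1% of tested clusters did so. The scaling multiplies all clusters of a library by 1 factor, so these counts follow from that factor for clusters chosen to be level on the deposited values, and they are no test of a change. The rule applied after median scaling chose 19 other clusters and shared none with the 77. On the deposited values all 19 were lower in L than in M and C, with a median of -0.89 against C. This too follows from the scaling factor and is no test.

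Other scalings left most of the set in place. After quantile normalization 91 clusters met the rule and 69 were shared, which is 89.6% of the 77 and 75.8% of the 91. Scaling each library to the same sum of FPKM gave 94 clusters and 71 shared, or 92.2% of the 77 and 75.5% of the 94. Scaling to the median of the 77 clusters themselves gave 95 clusters and 65 shared, or 84.4% of the 77 and 68.4% of the 95. The 77 were chosen to be level in all libraries, so this scale lies near the deposited one by that choice. Its overlap is therefore no test. The rule was met by 58 of the 77 under the deposited scale and these 3 scalings alike, and by 0 when median scaling was added.

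**Figure D4:**
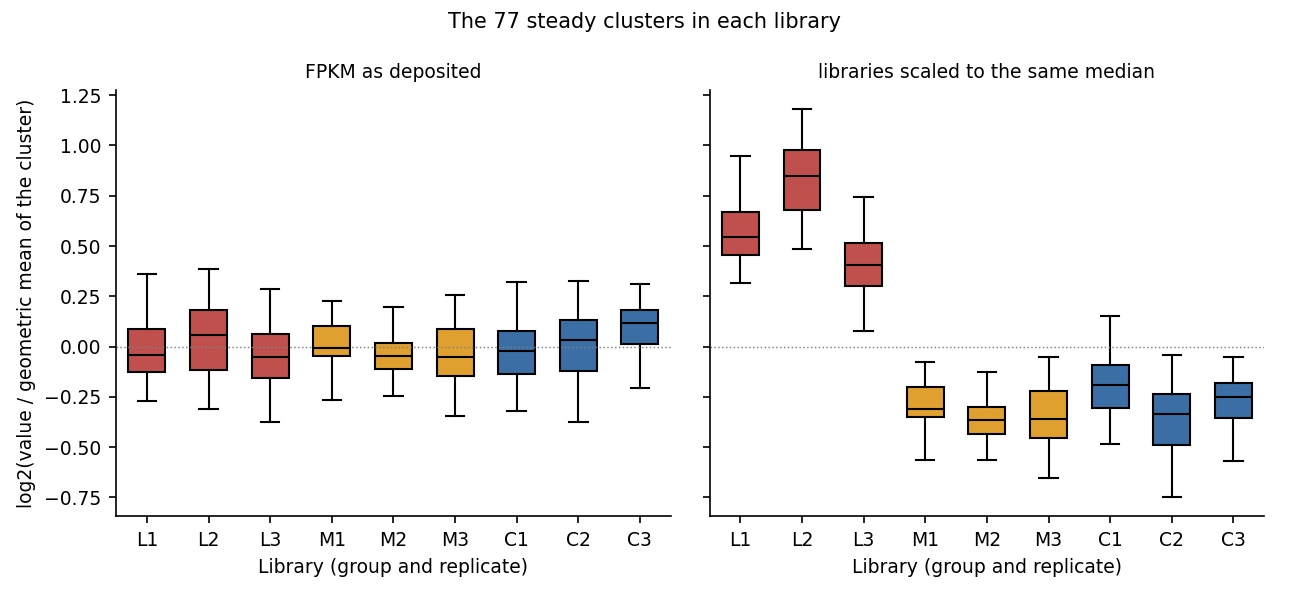
Deviation of each of the 77 steady clusters from its own geometric mean (log2), per library of groups L, M and C, for FPKM as deposited and after each library was scaled to the same median. Boxes show the quartiles with the median as a line, and whiskers reach the lowest and highest cluster. All libraries centre near 0 on the deposited values, and the L libraries stand above the others after median scaling.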

How the data were processed

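Poly(A) RNA of leaves was sequenced in 9 libraries, 3 in each of the groups L, M and C. The FPKM values were calculated by the authors, per the file headers, and deposited with 2 decimals per cluster. Not given in the sources used here are the aligner, assembler and counting tool. The steady clusters and the comparisons were chosen with earlier results of these data known. Values were transformed to log2(FPKM + 1), and the 35314 clusters that reached 1 FPKM in 3 or more libraries were fitted with limma 3.58.1 (R 4.3.3, trend by intensity), with 6 residual and 2.88 prior degrees of freedom and Benjamini-Hochberg adjustment. On this log2 scale with a pseudocount, fold changes of low clusters are understated. The fit was tested on simulated data.

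Clusters printed by identifier were the 3 with the smallest ratio, the 2 with the highest and the 1 with the lowest mean, and the 1 nearest to the ratio limit on either side. Alternatives changed the pseudocount, the filter, the scaling, the limits of the rule and the libraries used. Lists of reference genes were not run, since the table pairs no cluster with a name. Sums of FPKM lay between 863749 and 932785 per library.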

Additional observations from a re-analysis of the deposited data

How the results depend on the processing

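The number of steady clusters followed the limits of the rule, from 77 as reported to 201 with a floor of 20 FPKM, 28 with 100 FPKM, 19 at a ratio of 1.3, 353 at a ratio of 2, 371 with the ratio taken over the 3 group means, 79 without the limit on the C mean and 19 after median scaling. It was 80 to 119 with 1 library left out and highest without L replicate 2. With median scaling the median log2 difference of the 77 clusters was 0.842 in L against C and 0.917 in L relative to M. With 1 library left out it ran from -0.092 to 0.00103 for L against C, where the value near 0 came without L replicate 3, from -0.069 to -0.022 for M against C and from -0.013 to 0.028 for L relative to M.

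The share of clusters steady in 2 groups that held in the third was 22.7% for L after quantile normalization, 6.29% for L and 25% for M after median scaling, and 15.4% to 26.7% for L, 51.3% to 67.2% for M and 25.4% to 39.5% for C with 1 library left out. A pseudocount of 5 lowered the clusters called to 6980 for L against C, 1997 for M against C and 4776 comparing L with M. With 1 library left out the calls were 13680 to 14610, 3078 to 5564 and 10299 to 11691. For these results the cause was not tested.

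Cluster-17261.21009 and Cluster-17261.28784 exceeded the ratio limit after quantile normalization, at 1.61 and 1.53, and Cluster-17261.28784 also after scaling to the same sum of FPKM, at 1.56. Same-numbered replicates of different groups deviated with correlations of -0.06 to 0.031. Differently numbered libraries were not correlated for reference, and the labels do not state whether the numbers pair the libraries. A replicate block gave 14315, 4089 and 10967 calls. The scaling to the same sum of FPKM, and leaving out libraries when 1 group was read out, were chosen after the data were seen. Without counts, depth limits each value to an unknown degree.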

Other observations

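All 77 steady clusters carry the parent number 17261 in their identifier, as do all 1062 abundant clusters and 69.8% of the clusters in the table. Within this parent number, 96.1% of the steady clusters and 97.0% of the abundant ones have identifier numbers from 15000 to 30000, against 33.7% of all its clusters. What the numbers stand for is not given in the sources used here. Among the 77, 8 lie within 5 numbers of another steady cluster. No such count was made for other clusters, and nothing is read from it.

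The steady clusters also differed in replicate spread from other abundant clusters, as their choice requires. The median SD of log2 FPKM within a group was 0.125 in L, 0.091 in M and 0.123 in C for the 77, and 0.231 in L, 0.168 in M and 0.253 in C for the other 985.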
